A study of Mus musculus with 10 samples.

Results

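The genes described here are 9 that build or mark the contractile apparatus of myofibroblasts: the smooth muscle actins Acta2 and Actg2, the actin-binding proteins Tagln and Cnn1, the tropomyosins Tpm1 and Tpm2, the myosin subunits Myl9 and Myh11, and the surface protein Lrrc15. They were chosen by name, and each symbol matched 1 of the 55486 genes in the count table. RNA sequencing had been done on 10 libraries sorted from 5 gels of collagen and basement membrane extract (BME), each kept for 7 days and then sorted by color. Normal fibroblasts (NFs) came from mammary glands of mTmG mice 8 weeks of age, whose cells are red (Tomato) until Cre recombinase turns them green (GFP). They were split on the surface protein CD26, and after culture on plastic the CD26+ NFs alone received an adenovirus carrying Cre, so the subset and exposure to the virus cannot be told apart. Gel 1 held CD26- and CD26+ NFs in equal parts, gel 2 held tumor cells of line 13-MCB-17 only and gel 3 those of line 10-SJK-221 only, while the NF mixture was grown with 13-MCB-17 in gel 4 and with 10-SJK-221 in gel 5. The tumor lines had been derived from end-stage WapCre;Cdh1F/F;PtenF/F tumors, a model of invasive lobular carcinoma in which Cre is active in mammary epithelium. Per the study's methods, glands of several mice were pooled for each sort, and NFs were taken from cells without EpCAM, CD49f, CD45 and CD31.

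Libraries held 14142334 to 18408940 counts, and levels are given as CPM, the counts of a gene per 1e+06 counts of its library. A fibroblast list (8 genes, among them Col1a1 and Dcn) summed to 69497 and 74846 CPM in NFs alone, to 23316 to 41535 CPM in co-cultured NFs, and each of its members was read in every NF library. Dpp4, which encodes CD26, reached 0.281 to 0.771 CPM in CD26+ NFs and at most 0.0575 CPM in CD26- NFs, a difference in the direction of the labels on few counts. Of 8 epithelial markers, 6 were at 0 in either library of NFs alone, whereas all 8 were read in every co-cultured NF library. Scaled to the tumor cells of the same gel, the median of these markers corresponded to a tumor RNA share of 1.97% and 2.82% in CD26- and CD26+ NFs of gel 4, and of 2.07% and 5.03% in those of gel 5. At these shares, tumor RNA would supply 3.79% to 9.37% of the Tpm1 level in co-cultured NFs and under 1% of that of every other member. Single markers gave shares from 0.827% to 17.7%, so the Tpm1 part is known only roughly.

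Myofibroblasts are fibroblasts that pull on the matrix around them. They assemble stress fibres, in which actin filaments that carry tropomyosin slide against myosin, and they do so in wounds, in fibrosis and in the stroma of tumors. Many genes of this apparatus are shared with smooth muscle and are switched on by serum response factor (SRF), which binds a sequence called the CArG box, together with the myocardin family of coactivators. TEAD factors, which bind the MCAT element, act on some of the same genes. LRRC15 is a membrane protein that marks matrix-rich, TGF-beta-responsive fibroblasts in tumors, and is no part of the contractile machine.

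Promoter sequences from RefSeq (GRCm38.p6) were at hand for 6 members: Acta2, Myl9, Cnn1, Tpm1, Tpm2 and Lrrc15. In the 250 bases before the start, both strands were searched for the CArG box (CC, then 6 letters that are each A or T, then GG), for a CArG-like form in which at most 1 of these 6 letters is C or G, and for MCAT (CATTCC, or GGAATG on the other strand). Every CArG box is also counted as CArG-like. Of 32841 promoters, 1.47% held a CArG box, 8.59% a CArG-like match and 12.6% an MCAT match. The stretches below show the matches of Acta2, Myl9 and Tpm1 in capitals, and beside them Lrrc15, which held no match. Whether any match acts on its gene in these cells was not tested.
Acta2 CArG-like, farther from the start: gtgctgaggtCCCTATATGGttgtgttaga
Acta2 CArG-like, nearer to the start: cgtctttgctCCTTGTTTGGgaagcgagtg
Acta2 MCAT: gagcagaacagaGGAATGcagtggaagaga
Myl9 CArG box and CArG-like: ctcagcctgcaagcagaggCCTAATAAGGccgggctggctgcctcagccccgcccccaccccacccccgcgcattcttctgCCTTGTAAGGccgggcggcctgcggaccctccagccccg
Tpm1 MCAT: tggctgtcctaaGGAATGcggtcgcccccc
Lrrc15: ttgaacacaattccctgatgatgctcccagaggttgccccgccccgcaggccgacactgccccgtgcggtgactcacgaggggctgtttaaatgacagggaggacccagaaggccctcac
The Acta2 stretches lie on the minus strand at chr19:34255438-34255467, chr19:34255388-34255417 and chr19:34255502-34255531, and their matches end 75, 25 and 141 bases before the RefSeq start. The Myl9 stretch lies on the plus strand at chr2:156775284-156775403, with a CArG box that ends 152 bases and a CArG-like match that ends 90 bases before the start. The Tpm1 stretch lies on the minus strand at chr9:67049252-67049281. The Acta2 and Tpm1 stretches fall inside an exon that GENCODE M21 annotates for these genes, since its transcripts begin farther upstream than the RefSeq start. The Lrrc15 stretch (minus strand, chr16:30283257-30283376) overlaps no annotated exon. No match to these letters was found before the starts of Cnn1, Tpm2 or Lrrc15.

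The actins were compared first. Acta2 (ENSMUSG00000035783, chromosome 19, 34241090 to 34255590) encodes the alpha smooth muscle actin by which myofibroblasts are usually recognised. In CD26- NFs it had 574 CPM alone (gel 1) and 238 and 359.7 CPM in co-culture (gels 4 and 5), and in CD26+ NFs it had 343 CPM alone and 80.2 and 152 CPM in co-culture. Within every gel the CD26- library was the higher, and within either subset both co-cultured libraries were below the library of NFs alone. Actg2 (ENSMUSG00000059430, chromosome 6, 83512905 to 83536265), the gamma actin of visceral smooth muscle, kept the same order at a lower level. It had 28.3 CPM alone and 10.9 and 18.6 CPM in co-culture in CD26- NFs, and 12.5 CPM alone and 2.12 and 3.68 CPM in co-culture in CD26+ NFs. Per kb of exon, Acta2 stood 13.7 to 15.4 times above Actg2 in CD26- NFs and 19.4 to 29.3 times above it in CD26+ NFs, ranges that did not overlap.

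Tagln (ENSMUSG00000032085, chromosome 9, 45929619 to 45936058) encodes transgelin, which binds and bundles actin filaments. It had 376 CPM alone and 567 and 604 CPM in co-culture in CD26- NFs, against 200.03 CPM alone and 141 and 243 CPM in co-culture in CD26+ NFs. All 3 CD26- libraries were above all 3 CD26+ libraries. Exons of Tagln overlap genes of the opposite strand over 67.9% of their length, mostly Gm48529, so its counts are uncertain where the counting did not use strand. Gm48529 itself had 2.89 to 10.7 CPM in NFs. Cnn1 (ENSMUSG00000001349, chromosome 9, 22099216 to 22109630) encodes calponin, which binds actin and damps the myosin motor. It had 30.8 CPM alone and 18.8 and 21.5 CPM in co-culture in CD26- NFs, and 23.2 CPM alone and 11.1 and 16.2 CPM in co-culture in CD26+ NFs, so that its subset values overlapped.

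Tropomyosins lie along the actin filament and set which proteins may bind it. Tpm1 (ENSMUSG00000032366, chromosome 9, 67022590 to 67049406) had 531 CPM alone and 418 and 361 CPM in co-culture in CD26- NFs, and 465 CPM alone and 347 and 356 CPM in co-culture in CD26+ NFs. It was also abundant in tumor cells, with 601 and 509 CPM alone and 847 and 662 CPM in co-culture. Tpm2 (ENSMUSG00000028464, chromosome 4, 43514711 to 43523765) had 151 CPM alone and 139 and 137 CPM in co-culture in CD26- NFs, a range of little width, and 92.2 CPM alone and 56.6 and 78.4 CPM in co-culture in CD26+ NFs. The Tpm2 ranges of the subsets did not overlap.

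Myl9 (ENSMUSG00000067818, chromosome 2, 156775420 to 156781658) encodes the regulatory light chain of smooth muscle and non-muscle myosin, whose phosphorylation starts contraction. It had 154 CPM alone and 30.7 and 34.6 CPM in co-culture in CD26- NFs, and 117 CPM alone and 16.4 and 23.5 CPM in co-culture in CD26+ NFs. Every co-cultured library was far below the libraries of NFs alone. Myh11 (ENSMUSG00000018830, chromosome 16, 14194535 to 14291372) encodes the smooth muscle myosin heavy chain, a late marker of differentiated smooth muscle. It stayed between 2.24 and 3.11 CPM in all 6 NF libraries, or 37 to 50 counts, with no order by subset or culture. Lrrc15 (ENSMUSG00000052316, chromosome 16, 30269302 to 30283256) had 126 CPM alone and 672 and 796 CPM in co-culture in CD26- NFs, and 66.0 CPM alone and 230.3 and 279 CPM in co-culture in CD26+ NFs. It was the only member whose co-cultured libraries all stood above both libraries of NFs alone.

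**Figure D1:**
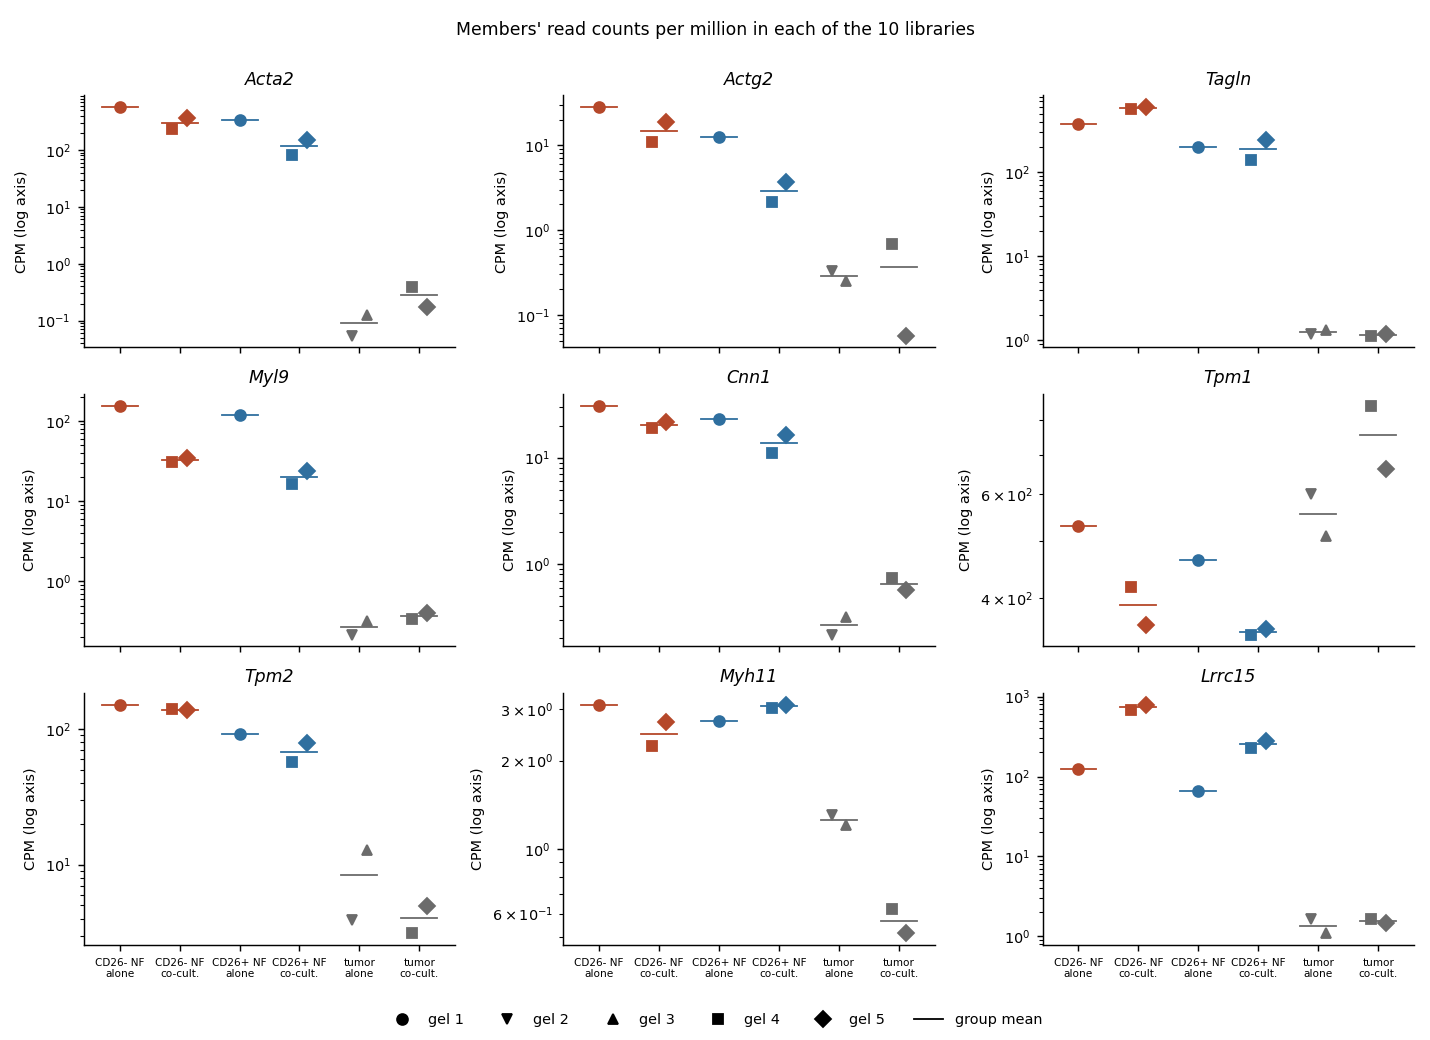
CPM (log axis, a different range in each panel) of the 9 members in the 6 groups, with a point for each library, its shape giving the gel, and a line at the group mean. Acta2 and Myl9 are lower and Lrrc15 is higher in co-cultured NFs than in NFs alone, Tpm1 is abundant in NFs and in tumor cells but higher in tumor cells in co-culture, and Myh11 lies between 2.24 and 3.11 CPM in NFs.

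Levels of different genes were compared per kb of exon, since longer transcripts give more counts. In CD26- NFs alone Acta2 led with 262 CPM per kb, ahead of Tagln with 189 and Myl9 with 133 CPM per kb. In CD26+ NFs alone Acta2 led with 156 CPM per kb, while Myl9 (100.7) and Tagln (100.6) could not be ranked. In all 4 co-cultured NF libraries Tagln led instead, with 285 and 304 CPM per kb in CD26- NFs and 70.7 and 122 CPM per kb in CD26+ NFs. The ratio of Tagln to Acta2 was 0.724 and 0.645 in NFs alone and 1.77 to 2.64 in co-culture. Of the summed level of the 9 members, Acta2 made up 31.8% and 33.9% in NFs alone and 15% to 21.3% in co-culture. Myl9 went from 17.2% and 20.6% to 3.87% to 5.81%, and Lrrc15 from 2.54% and 3.07% to 14.8% to 19.5%. In CD26- NFs the sum was 770.7 CPM per kb alone and 673 and 770.5 CPM per kb in co-culture. In CD26+ NFs the sum was 490 CPM per kb alone and 244 and 355 CPM per kb in co-culture.

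**Figure D2:**
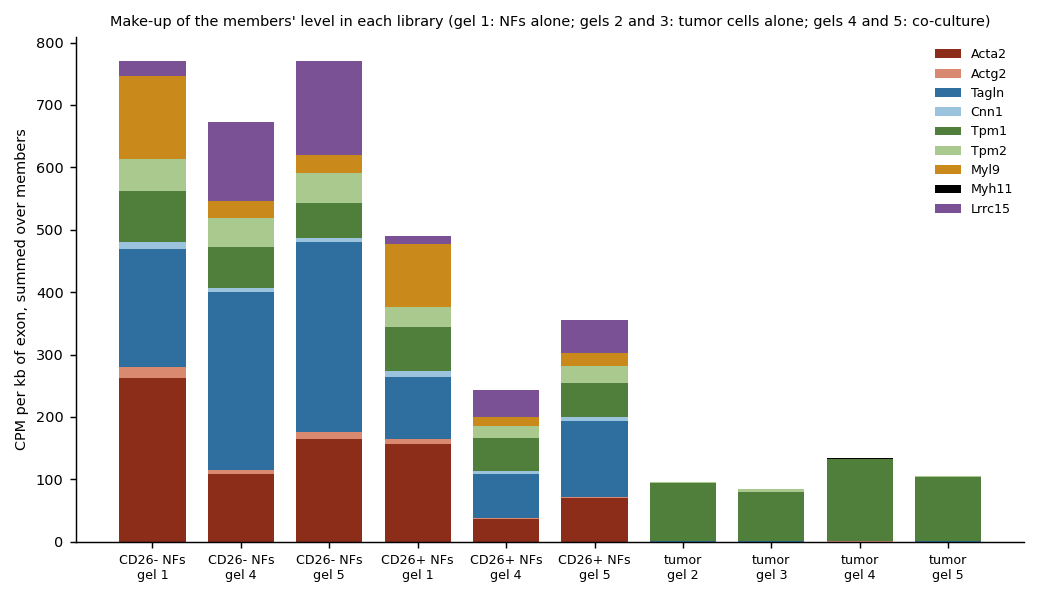
Stacked bars give the level of each member in CPM per kb of exon in the 10 libraries, so that the height of a bar is the sum over the 9 members. Acta2 and Myl9 take the larger part of the bars of NFs alone (gel 1), Lrrc15 is larger in all 4 bars of co-cultured NFs, Tagln is larger in 3 of them and smaller in CD26+ NFs of gel 4 (70.7 against 100.6 CPM per kb), and Tpm1 makes up 92.8% to 97.6% of the bars of tumor cells.

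To ask whether the subsets differ in these genes, both subsets were set against each other in gels 1, 4 and 5, with culture as a term. Of the 9 members, 6 were lower in CD26+ NFs at an adjusted p-value under 0.05 (edgeR, quasi-likelihood F test, Benjamini-Hochberg), and none was higher. Over all 15013 genes tested, 7.53% passed in either direction. The median log2 fold change of the members was -1.08, against 0.00395 over all genes. Actg2 fell furthest (log2 fold change -2.05, SE 0.333, adjusted p = 0.0100), followed by Tagln (-1.53, SE 0.23, adjusted p = 0.00709), Lrrc15 (-1.49, SE 0.177, adjusted p = 0.00305) and Acta2 (-1.32, SE 0.27, adjusted p = 0.0236). Tpm2 (-1.08, SE 0.156, adjusted p = 0.00633) and Myl9 (-0.75, SE 0.167, adjusted p = 0.0296) were also lower. Cnn1 missed the threshold (-0.66, SE 0.179, adjusted p = 0.0540), but passed when gel was a term in place of culture, which pairs the subsets within a gel (-0.68, adjusted p = 0.0251). Tpm1 (-0.32, SE 0.12, adjusted p = 0.139) and Myh11 (-0.01, SE 0.295, adjusted p = 0.985) did not pass. Without gel 5, 0 of 9 members passed in edgeR, and 7 had an unadjusted p under 0.05, with 17 genes called in the whole table. Without gel 1 or gel 4 the count stayed at 6, and DESeq2 called 7.

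Within gels, the size of the subset difference varied. In gel 1, the ratio of CPM in CD26+ to CD26- NFs was 0.596 for Acta2 (95% counting interval 0.576 to 0.617), 0.531 for Tagln and 0.524 for Lrrc15. In gel 4 these ratios were 0.338, 0.248 and 0.342, and in gel 5 they were 0.423, 0.402 and 0.351. For these genes the ratio was thus nearer to 1 in NFs alone than in either co-culture. Tpm1 had ratios of 0.875, 0.830 and 0.985, the last with an interval of 0.949 to 1.02. Such intervals take in counting error alone, as the reads carry no molecular identifiers.

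**Figure D3:**
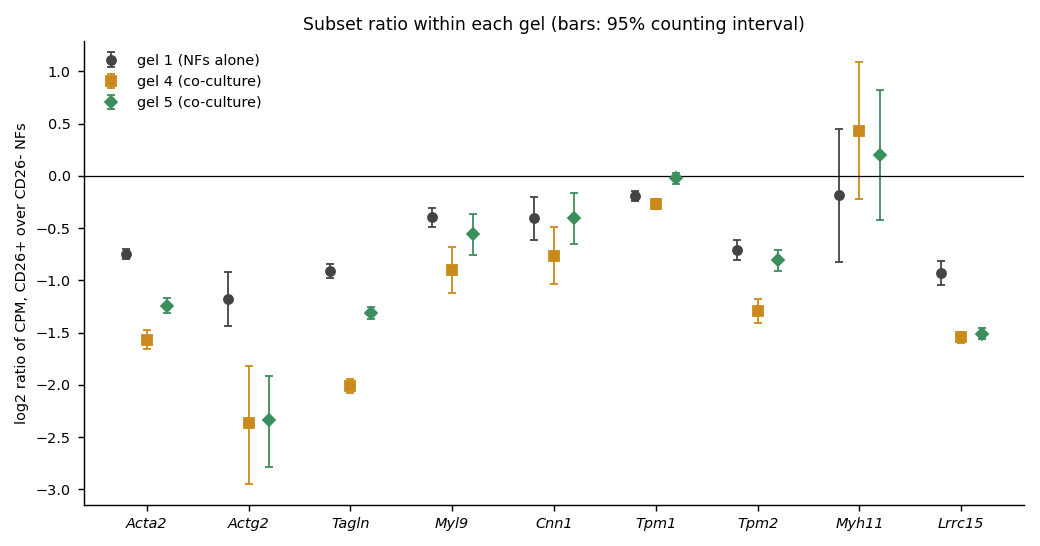
Log2 ratio of the CPM of CD26+ NFs to that of CD26- NFs for each member (x axis) in gels 1, 4 and 5, with 95% counting intervals as bars. Points of all members but Myh11 lie below 0 in all 3 gels, Tpm1 nearest to it, and those of Myh11 lie on either side of it.

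Within co-culture alone, where 2 libraries of each subset were available, 6 of 9 members were lower in CD26+ NFs, against 6.01% of 16231 genes called in either direction. These libraries are also part of the comparison over 3 gels. Actg2 (-2.54, SE 0.329, adjusted p = 0.000549), Tagln (-1.78, SE 0.24, adjusted p = 0.000730), Lrrc15 (-1.70, SE 0.194, adjusted p = 0.000182) and Acta2 (-1.54, SE 0.286, adjusted p = 0.00603) were lowest, with Tpm2 (-1.20, adjusted p = 0.00218) and Myl9 (-0.88, adjusted p = 0.0220) after them. Cnn1 (-0.74, SE 0.221, adjusted p = 0.0693) passed only with gel as a block (-0.74, adjusted p = 0.00117). Myh11 was 0.13 higher (SE 0.359, adjusted p = 0.889). These calls rested on the CD26+ libraries of co-culture: leaving out that of gel 4 or that of gel 5 left 0 of 9 members past the threshold in edgeR, with 6 and 7 at an unadjusted p under 0.05. Over all genes these fits called 0 of 15823 and 2 of 16041. Leaving out the CD26- library of gel 4 left 5 members, without Myl9, and that of gel 5 left 4, without Acta2 and Myl9. Acta2 also missed it in DESeq2 (adjusted p = 0.103), and Myl9 with a filter of 1 count only (adjusted p = 0.0580). Nothing in the labels says that gels were set up from separate sorts, so p-values measure the spread between these gels, which may be technical. Gels 4 and 5 also held different tumor lines, so the spread between them and the difference between lines cannot be told apart.

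To ask how the members respond to tumor cells, co-cultured NFs were compared with NFs alone, with subset as a term. Here 5 members fell and 1 rose, so 6 of 9 passed, against 48.8% of 15013 genes, a share at which calls are common. Lrrc15 rose by 2.29 on the log2 scale (SE 0.207, adjusted p = 2.18e-05), or 4.89-fold. Myl9 fell by 2.34 (SE 0.167, adjusted p = 5.43e-06), or 5.08-fold. Actg2 (-1.43, SE 0.33, adjusted p = 0.00597) and Acta2 (-1.21, SE 0.273, adjusted p = 0.00518) fell less, and Cnn1 (-0.64, SE 0.184, adjusted p = 0.0173) and Tpm1 (-0.38, SE 0.126, adjusted p = 0.0314) less again. Tagln (0.33, SE 0.242, adjusted p = 0.29), Tpm2 (-0.24, SE 0.162, adjusted p = 0.244) and Myh11 (-0.04, SE 0.313, adjusted p = 0.925) did not pass. Tagln passed without gel 4 (0.57, adjusted p = 0.0278), where Cnn1 and Tpm1 did not, and Tpm1 also did not pass without gel 5 (adjusted p = 0.136). Only gel 1 held NFs alone, so the culture condition and that gel cannot be told apart. In bulk samples, fewer cells of a type and less RNA per cell cannot be told apart either.

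Taken by subset, 2 members passed in CD26- NFs (30.8% of 16231 genes did) and 5 in CD26+ NFs (34.2% did). Lrrc15 rose in CD26- NFs (2.61, SE 0.265, adjusted p = 6.17e-06) and in CD26+ NFs (1.99, SE 0.258, adjusted p = 5.53e-05). Myl9 fell in CD26- NFs (-2.17, SE 0.232, adjusted p = 9.98e-06) and in CD26+ NFs (-2.51, SE 0.236, adjusted p = 3.33e-06). Acta2 fell in CD26+ NFs (-1.52, SE 0.331, adjusted p = 0.00319) and missed the threshold in CD26- NFs (-0.87, SE 0.332, adjusted p = 0.0626). Actg2 fell in CD26+ NFs (-2.07, SE 0.38, adjusted p = 0.000944) and had -0.86 in CD26- NFs (SE 0.334, adjusted p = 0.0663). Cnn1 passed in CD26+ NFs (-0.73, adjusted p = 0.0478). Without the gel 5 library of CD26- NFs 4 members passed in that subset, Acta2 (adjusted p = 0.0268) and Actg2 (adjusted p = 0.0161) added. In CD26+ NFs, Myl9 and Lrrc15 alone passed without the library of gel 4, Tpm2 was added without that of gel 5 (adjusted p = 0.0330), and DESeq2 called 3 members, without Acta2 (adjusted p = 0.102) and Cnn1. Cnn1 was also lost with a filter of 1 count only (adjusted p = 0.0889).

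Whether culture acted differently on the subsets was tested by the interaction, which asks if the log2 fold change of CD26+ NFs minus that of CD26- NFs is 0. With edgeR 0 of 9 members passed, 1 had an unadjusted p under 0.05 (Actg2), DESeq2 called 0, and 0.376% of 16231 genes passed. The difference was -1.21 for Actg2 (SE 0.52, adjusted p = 0.586), -0.72 for Tagln (SE 0.404, adjusted p = 0.756), -0.65 for Acta2 (SE 0.484, adjusted p = 0.878) and -0.63 for Lrrc15 (SE 0.331, adjusted p = 0.723). With gel as a block, Actg2 passed (-1.20, adjusted p = 0.0451). NFs alone gave 1 library of each subset, so a p that misses the threshold here does not show that the subsets responded alike.

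**Figure D4:**
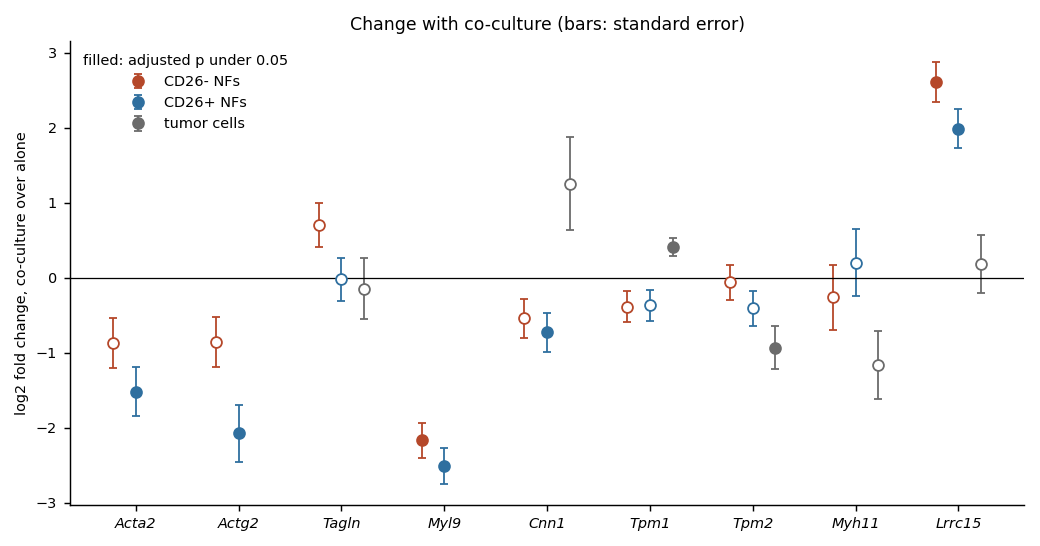
Log2 fold change of co-culture over culture alone for each member (x axis) in CD26- NFs, CD26+ NFs and tumor cells, with standard errors as bars and filled points where the adjusted p-value is under 0.05. Lrrc15 lies above 0 and Myl9 below it in both NF subsets, Tpm1 lies on opposite sides of 0 in NFs and tumor cells, and Acta2, Actg2 and Myl9 have no tumor point because their counts were too low to be tested.

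Markers of pericytes and vascular smooth muscle, which also make contractile proteins, were read beside these changes. The list of 8 genes, 7 of them read in every NF library, summed to 63.6 CPM (CD26-) and 92.4 CPM (CD26+) in gel 1. In CD26- NFs it reached 389.7 and 565 CPM with tumor cells, and in CD26+ NFs 213 and 274 CPM. Its rise was carried by Notch3, Mcam and Cspg4, with log2 fold changes of 1.90, 4.02 and 4.62, and Des also passed at no more than 2.51 CPM. In the subset comparison in co-culture these 3 genes were lower in CD26+ NFs (-0.96, -1.66 and -1.46) and Kcnj8 was higher (2.54). Notch3 (-2.10, adjusted p = 0.0273) and Cspg4 (-2.57, adjusted p = 0.0144) passed the interaction of subset and culture in edgeR, where 0.376% of 16231 genes did. That test had 1 library of each subset alone, and its calls hung on single co-culture libraries, as given under processing. Of 8 fibroblast markers, 4 were lower in CD26+ NFs in co-culture, where 6.01% of all genes passed, and 2 over the 3 gels, where 7.53% did. With co-culture against NFs alone, where 48.8% of all genes passed, 4 of the 8 fell, Col3a1 (-1.95, adjusted p = 0.000233) and Col1a2 (-0.99, adjusted p = 0.00300) among them, and Dcn (0.50, adjusted p = 0.0237) and Thy1 (1.30, adjusted p = 0.00651) rose. Rgs5 (1.88 to 9.25 CPM) and Abcc9 (3.94 to 19.9 CPM) did not pass over both subsets (adjusted p = 0.0625 and 0.169), but both fell with co-culture in CD26- NFs (-1.64, adjusted p = 0.0173, and -1.44, adjusted p = 0.0270), and Higd1b was at 0 in every library. Basal or myoepithelial markers (7 genes), another source of Acta2 in the mammary gland, summed to between 20.8 and 22.4 CPM without tumor cells and between 45.7 and 74.6 CPM with them, 41.9 to 66.0 CPM of it Itga6, while Krt5 did not exceed 0.14 CPM in NFs. Of the 5 that could be tested, Itga6 and Krt14 (no more than 1.56 CPM) rose with co-culture, and Cdh3 (-2.25, adjusted p = 0.00130) and Trp63 (-1.47, adjusted p = 0.00868) fell. Tumor cells of gels 4 and 5 themselves had 322 and 424 CPM of Itga6 and 32.7 and 49.6 CPM of Krt14. Cdh3 was also higher in CD26+ than in CD26- NFs of co-culture (1.61, adjusted p = 0.00418). Endothelial markers (4 genes) summed to 1.12 and 4.91 CPM in gel 1 and to 8.00 to 22.9 CPM in gels 4 and 5, where Pecam1 (3.35, adjusted p = 0.000110) and Cdh5 (3.54, adjusted p = 0.00192) rose, and Kdr was higher in CD26+ than in CD26- NFs over the 3 gels (2.11, adjusted p = 0.0191). Leukocyte markers (4 genes) summed to 5.40 and 9.33 CPM in gel 1 and to 30.8 to 61.9 CPM in gels 4 and 5, where Cd68 (2.84, adjusted p = 3.98e-05) and Csf1r (2.12, adjusted p = 0.000494) rose, with Ptprc at no more than 0.0621 CPM and Tyrobp at 0. Tumor cells of gels 4 and 5 themselves had 80.5 and 34.8 CPM of Cd68 and 11.6 and 12.9 CPM of Csf1r. The part of such other cell types in the members' changes, and of tumor RNA in the marker changes, was not tested.

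Other genes of the same pathway were taken from 5 lists of 51 genes. Of 47 tested over the 3 gels, 11 were lower in CD26+ NFs and none was higher (7.53% of all genes passed in either direction), 21 had an unadjusted p under 0.05, and DESeq2 called 14. Of the stress fibre and focal adhesion genes 5 of 13 were lower, and of the other actomyosin and thin-filament genes 5 of 17. Mylk, the kinase that phosphorylates myosin light chains, fell furthest (-1.56, SE 0.26, adjusted p = 0.0110), followed by Lmod1, which nucleates actin filaments in smooth muscle (-1.04, SE 0.226, adjusted p = 0.0285), and Tead1, which encodes a TEAD factor (-0.96, SE 0.174, adjusted p = 0.0142). Among the other actins (3 tested) edgeR called 0, with 2 at an unadjusted p under 0.05, and DESeq2 called 0. In co-culture alone, where 6.01% of all genes passed in either direction, 9 of 48 were lower. Furthest were Mylk (-1.99, adjusted p = 0.000620), Lmod1 (-1.24) and Vcl, which encodes vinculin of focal adhesions (-0.87, adjusted p = 0.0140). As given above, few genes of the whole table passed without gel 5, or in co-culture without either CD26+ library. The lists were not counted in such fits.

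With co-culture, 18 of 47 genes of these lists fell in NFs and 9 rose, beside 48.8% of all genes called in either direction. Mylk fell furthest (-4.17, SE 0.257, adjusted p = 2.25e-06), from 224 CPM to 12.5 and 20.9 CPM in CD26- NFs and from 127 CPM to 5.01 and 4.53 CPM in CD26+ NFs. It thus fell together with Myl9, whose protein it phosphorylates. Lmod1 (-2.73, adjusted p = 1.11e-05) and Synm, an intermediate filament protein (-2.30, adjusted p = 0.00651), were next. Foxf1, a transcription factor of mesenchyme (2.34, adjusted p = 4.97e-05), Des (1.87, adjusted p = 0.0332) and Smtn, which encodes the actin-binding smoothelin (1.82, adjusted p = 1.32e-05), rose most. Smtn went from 75.7 and 78.6 CPM to between 234 and 331 CPM. The cytoplasmic actins Actb (-0.62) and Actg1 (-0.38) both fell, and Myocd was at or under 0.351 CPM throughout. By list, the median log2 fold change was -0.38 for other actins, -0.11 for other actomyosin and thin-filament genes, -0.46 for stress fibre and focal adhesion genes and 0.02 for transcription factors, against 0.0246 over all genes. Of 48 genes tested, 0 passed the interaction in edgeR, 3 had an unadjusted p under 0.05, and DESeq2 called 0.

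Tumor cells served as the other cell type of the gels. Except for Tpm1, the members had 0.0543 to 12.9 CPM in them, Tpm2 of line 10-SJK-221 alone the highest. Acta2 had 1 and 2 counts in tumor cells alone against 14131 counts over both libraries of NFs alone, a ratio of CPM of 5296 with a counting interval of 1812 to 25684. In the fit of NFs against tumor cells, 8 of 9 members were higher in NFs when each was grown alone (63.5% of 15878 genes passed in either direction). In co-culture 8 were higher in NFs and Tpm1 lower (61.3% passed). Lrrc15, for example, was 6.23 higher alone (SE 0.289, adjusted p = 2.66e-08) and 8.33 higher in co-culture (SE 0.293, adjusted p = 6.29e-09). Myh11 was 1.37 higher alone (SE 0.373, adjusted p = 0.00834), a call lost without the CD26- library of gel 1 (adjusted p = 0.0681), the tumor library of gel 2 (0.152) or that of gel 3 (0.104). Actg2 was also lost without the tumor library of gel 2 (adjusted p = 0.0945), and Acta2 in co-culture without that of gel 5 (adjusted p = 0.0513). Tpm1 did not pass between NFs and tumor cells alone (-0.01, SE 0.135, adjusted p = 0.973) and was 0.81 lower in NFs in co-culture (SE 0.114, adjusted p = 0.000125).

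In tumor cells themselves, 6 members could be tested with line as a term, and 2 passed, against 22.3% of 13197 genes. Tpm1 rose with co-culture (0.41, SE 0.117, adjusted p = 0.0381), in line 13-MCB-17 by a ratio of 1.41 (counting interval 1.37 to 1.44) and in line 10-SJK-221 by 1.30 (1.26 to 1.34). Tpm2 fell (-0.93, SE 0.286, adjusted p = 0.0491), from 3.91 to 3.11 CPM in 13-MCB-17 (ratio 0.795, counting interval 0.549 to 1.15, which holds 1) and from 12.9 to 4.96 CPM in 10-SJK-221 (0.386, 0.297 to 0.499). Neither passed without line as a term (0 of 6 in edgeR, 1 at an unadjusted p under 0.05) or in a fit over all 10 libraries, and DESeq2 called Tpm1 only. Single fibroblast markers in sorted tumor cells of co-culture gave NF RNA shares of 0 to 9.92%. The highest was that of Pdgfra, which tumor cells grown alone also had, at 67.7 and 35.6 CPM. By the median, NF RNA came to 0.109% and 0.130% in the tumor cells of gels 4 and 5. At the medians it would supply 43.6% and 194.5% of their Acta2 level, 34.0% and 46.0% of their Tagln level, 29.9% and 47.1% of their Lrrc15 level and under 0.1% of their Tpm1 level. Of 44 pathway genes tested in tumor cells 5 rose and 2 fell, beside 22.3% of all genes called in either direction, and DESeq2 called 3. Without line as a term, edgeR called 0 of 13197 genes. Mylk (2.44, adjusted p = 0.0116), the LIM proteins Fhl1 (1.62) and Pdlim7 (0.74) rose most, and Myh14 (-2.47) and Pdlim5 (-0.35) fell. In a contrast of the culture effect in NFs against that in tumor cells, chosen after the values were seen, 4 of 9 members passed, against 31.4% of 15878 genes.

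The genes whose pattern over the 6 NF libraries was most like that of Acta2 were Clec11a (root mean square difference 0.223), Nox4 (0.225), Prss23 (0.272), Adamts12 (0.282) and Naalad2 (0.293), of 9042 genes with a mean of at least 10 CPM. The difference is taken between log2 CPM values (TMM, prior count 2) centred on each gene's mean, and Acta2 itself varied by an SD of 0.970 on this scale. Nox4, an NADPH oxidase, had 30.7 CPM alone and 10.9 and 20.6 CPM in co-culture in CD26- NFs, and 26.0 CPM alone and 5.08 and 9.48 CPM in co-culture in CD26+ NFs. Nearest to Lrrc15 (SD 1.32) were Rap1gap2 (0.115), Shc4 (0.290), Fam131b (0.325), Adcyap1r1 (0.382) and Slc20a1 (0.382). Rap1gap2 had 11.1 CPM alone and 46.4 and 60.3 CPM in co-culture in CD26- NFs, and 5.05 CPM alone and 19.3 and 21.2 CPM in co-culture in CD26+ NFs, but 71.3 to 100.4 CPM in tumor cells, where Lrrc15 did not exceed 1.64 CPM. Acta2 and Lrrc15 differed from each other by 1.68, and among the members the widest difference was that of Myl9 and Lrrc15 (2.22).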

How the data were processed

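Stranded mRNA libraries were made from sorted cells and sequenced on Illumina HiSeq and NovaSeq instruments. Per the submitters' processing notes, HISAT2 2.2.1 and the GRCm38 build were used, while the program that counted reads, whether it used strand, and the annotation release are not given in the sources used here. The values are raw read counts per gene in 10 libraries, deposited by the authors as 1 table without normalization, and no per-sample column was left out. Of 55486 gene IDs, 55226 (99.5%) were found in GENCODE M21, and 99.4% of these had the same coordinates. Intervals are 95% and cover counting error only, and a count of 0 allows up to 3 counts, or 0.163 to 0.212 CPM.

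CPM were computed on library totals, and levels per kb on the union of annotated exons. The deposited counts were tested with edgeR 4.0.16 in R 4.3.3 (TMM scaling, filterByExpr, quasi-likelihood F test), over all genes, adjusted by Benjamini-Hochberg and called under 0.05. TMM scaled CD26- libraries lower than CD26+ libraries, so fitted fold changes are slightly more negative than ratios of CPM. NF fits used 6 libraries, tumor fits 4, and fits of NFs against tumor cells 10. As alternatives, RLE scaling, DESeq2 1.42.0, a filter of 1 count only, gel as a block and leaving out each gel or library were run. Subsets shared gels by label. Deviations of gel 4 from gel 5 correlated across 9333 genes at r = 0.315 between CD26- and CD26+ NFs, 0.197 between CD26- NFs and tumor cells and 0.101 between CD26+ NFs and tumor cells. Scripts were tested on simulated counts.

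All 9 members are named whatever their p-value. From the lists of 51 pathway genes, up to 3 highest and 3 lowest log2 fold changes past the threshold with a mean of at least 1 CPM are named. This was done for the subset comparisons, culture over both subsets and culture in tumor cells. For culture by subset and NFs against tumor cells they are not named. Other list genes and marker genes given with values were chosen after their values were seen. The result of 1 of the 5 lists is not reported here on its own. Members and lists were chosen with earlier results of these data known. The contrast of the culture effect between NFs and tumor cells was added after the values were seen.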

Additional observations from a re-analysis of the deposited data

Results flagged for a closer look

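The culture effect in NFs was set against that in tumor cells in a fit over all 10 libraries, a comparison added after the values were seen, in which 31.4% of 15878 genes passed (edgeR). For 4 members the effects differed past the threshold. Tpm1 fell in NFs and rose in tumor cells, a difference of -0.80 on the log2 scale (SE 0.178, adjusted p = 0.00689), with all 4 co-cultured NF libraries below both libraries of NFs alone and both co-cultured tumor libraries above their own line grown alone. Lrrc15 rose in NFs by 2.10 more than in tumor cells (SE 0.414, adjusted p = 0.00374), where it stayed between 1.08 and 1.64 CPM. Myl9 differed by -2.79 (SE 0.665, adjusted p = 0.0100) and Cnn1 by -1.91 (SE 0.572, adjusted p = 0.0287), but in tumor cells these rested on 4 to 7 and 4 to 13 counts a library. Without the tumor library of gel 2 or that of gel 4, 0 of 9 members passed in edgeR, with 4 at an unadjusted p under 0.05 in either case, and without that of gel 3 or that of gel 5, Tpm1 and Lrrc15 passed. Cnn1 was also lost without the CD26+ library of gel 1 (adjusted p = 0.0510). DESeq2 called 5 members, Acta2 added. At the tumor RNA shares given above, 13.7 to 33.3 CPM of the Tpm1 level in co-cultured NFs would come from tumor cells, and the part of such RNA in the difference was not tested.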

How the results depend on the processing

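Limits come first from numbers: NFs alone were 1 library a subset, and every other group held 2. RLE scaling, the filter and DESeq2 left the number of members past the threshold within 1.5 times in the comparisons of NFs except 1, and gel 5 was needed for the subset calls over 3 gels.

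The number of members past the threshold ranged from 0 to 6 when a gel was left out of the subset comparison over 3 gels, from 0 to 5 when a library was left out of that in co-culture, from 5 to 5 for culture in both subsets, from 2 to 4 for culture in CD26- NFs, from 2 to 6 for culture in CD26+ NFs, and was 0 for the interaction. For culture in CD26+ NFs DESeq2 gave 3 against 5. The replicate block gave 1 for the interaction, 7 for the subset comparison over 3 gels and 7 in co-culture, and changed no other call than those of Cnn1 and Actg2 given above. In tumor cells the count was 1 with RLE scaling, 1 with DESeq2, 0 without line, and 0 in the fit over all 10 libraries and in each fit that left out a tumor library (from 0 to 0).

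Signs turned only for values that did not pass. With a gel or library left out, Myh11 ranged from -0.13 to 0.14 in the subset comparison over 3 gels, from -0.037 to 0.32 in co-culture and from -0.16 to 0.072 with culture, Tagln from -0.54 to 0.32 with culture in CD26+ NFs, Cnn1 from -0.55 to 0.065 and Tpm1 from -0.069 to 0.080 in the interaction, Tpm1 from -0.062 to 0.014 in NFs against tumor cells alone, Lrrc15 in tumor cells from -0.034 and -0.033 (fits without a 10-SJK-221 library) to 0.45, and Actg2 from -2.44 to 0.57 in the contrast of cell types. Tpm1 in the interaction was -0.0053 with RLE, -0.019 without the filter and -0.0062 with DESeq2, and in NFs against tumor cells alone it was 0.014, 0.013 and 0.011.

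Over all genes, the counts called moved more than 1.5 times in the interaction (61, against 18 without the filter, 98 with DESeq2, 395 with the block and 0 to 30 with a library left out), in the subset comparison in co-culture (975, against 603 without the filter, 2407 with the block and 0 to 451), in that over 3 gels without gel 5 (1130 against 17) and in tumor cells (2942, against 1541 with DESeq2, 1511 over all libraries, 0 without line and 216 to 708). Leaving out 1 library gave as few as 2947 of 4997 for culture in CD26- NFs, 3200 of 5556 in CD26+ NFs, 6203 of 10082 for NFs against tumor cells alone, 4955 of 9736 in co-culture and 2544 of 4979 (without the tumor library of gel 4) for the culture effect in NFs against that in tumor cells. The median log2 fold change of all genes for NFs against tumor cells in co-culture was 0.0492, 0.107 with RLE, 0.174 with DESeq2 and 0.283 with a filter of 1 count only. For culture in both subsets this median was 0.0246, and 0.204 with that filter.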
